A study of Mus musculus with 24 samples.

Results

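Fatty acid beta-oxidation shortens fatty acids inside mitochondria and peroxisomes, and in the fasting or insulin-deficient liver much of the acetyl-CoA it yields is turned into ketone bodies. The 31 genes described here form a list by function: carriers and carnitine enzymes that bring fatty acids into the mitochondrion, the enzymes of each turn of the cycle with their electron carriers, peroxisomal enzymes, 2 ketone body enzymes, and 3 secreted or membrane proteins that respond to the same nuclear receptor, PPARalpha. A probe set (a group of short probes for 1 transcript) was used where the platform table gave it a single gene symbol, and the probe set with the highest mean stood for the gene. This gave 30 of the 31 genes, all of them among the 13117 genes tested of 18193 with such a probe set. Acsl1, which activates long-chain fatty acids, was not analysed here.

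RNA from the livers of 24 mice, all male and of strain BALB/c, was hybridised to Affymetrix arrays. Each mouse had its own array, and each of the 4 groups held 6 mice. All mice were 6 weeks old on arrival, were held 3 to a cage and ate the purified AIN93G diet for 14 days before collection. The STZ mice had been injected once with 185 mg/kg streptozotocin (STZ), a toxin that destroys the insulin-producing cells of the pancreas, and ate the plain diet. The 0.1% quercetin and 0.5% quercetin mice were injected in the same way and ate the diet with that share of quercetin, a plant flavonol. Injected mice entered the diets only if their non-fasting glucose lay between 230 and 400 mg/dL, so the 3 injected groups were selected for diabetes. Food was free to all mice throughout. The untreated mice had no injection of STZ or of its buffer, so the injection itself and the STZ cannot be told apart. Cage membership was not given, and an effect of the cage and of the group cannot be told apart.

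In the insulin-deficient state fat stores release fatty acids, which bind and activate PPARalpha in liver cells. PPARalpha then raises transcription of many oxidation genes through a paired DNA site, and malonyl-CoA, an early product of fat synthesis, restrains entry through Cpt1a when insulin is present. The study asked how STZ diabetes and dietary quercetin alter liver gene expression. Levels below are log2 of the normalised intensity plus 16, for 1 probe set, and cannot be set against those of another gene. In bulk tissue fewer cells of a type and less RNA per cell cannot be told apart.

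The summed intensities of the hepatocyte markers were high and overlapped between the groups (11 of 12 markers measured). They were 61200 to 64200 in STZ, 61800 to 64300 in 0.1% quercetin, 60900 to 63200 in 0.5% quercetin and 61100 to 63300 in untreated mice. No hepatocyte marker had a limma adjusted p under 0.05. At an unadjusted p under 0.05, 1 was lower in each comparison except STZ against untreated and 0.1% quercetin against STZ mice. Sums of 14 macrophage markers were 1970 to 2510 in STZ, 2050 to 2410 in 0.1% quercetin, 1420 to 2300 in 0.5% quercetin and 1420 to 1810 in untreated mice. Of the 13 over the filter, 4 were higher in STZ and 5 in 0.1% quercetin mice than in untreated mice. Of 4 exocrine pancreas markers over the filter, Cela1 alone was lower, in STZ (-1.38) and in 0.1% quercetin mice (-1.36) against untreated mice, and the sums over the list were 210 to 283 in STZ, 188 to 329 in 0.1% quercetin, 232 to 599 in 0.5% quercetin and 497 to 674 in untreated mice. The 6 B and plasma cell markers with a probe set summed to 52.4 to 103 in STZ and 177 to 335 in untreated mice. Of the 5 over the filter 2 were lower, and only 2 of 8 adipocyte markers passed the filter on low values. The Gapdh 3′ minus 5′ probe difference, a measure of RNA quality, averaged -0.34 ± 0.10 in STZ, -0.32 ± 0.15 in 0.1% quercetin, -0.21 ± 0.17 in 0.5% quercetin and -0.04 ± 0.17 in untreated mice (log2, SD, n = 6 each). It differed from untreated in STZ (exact permutation test over 924 arrangements, two-sided, p = 0.00433, adjusted over 6 comparisons 0.026) and in 0.1% quercetin mice (exact permutation p = 0.013, adjusted 0.039). What these marker and RNA quality differences contribute to the comparisons with untreated mice was not tested, beyond the fit with the Gapdh difference given beside the results.

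Replicates 5 and 6 of the 0.5% quercetin group stood apart. On the axis of largest variation among arrays, which held 22.4% of the variance, they lay at -17.2 and -19.2, among the untreated mice (-18.3 to -13.5), while the other 4 mice of their group lay between 3.17 and 9.5. Their Gapdh 3′ minus 5′ differences were -0.056 and 0.01, against -0.396 to -0.143 in the other 4. How far the fit with the Gapdh difference also takes out variation along this axis was not tested. Whether replicates 5 and 6 carry the right label, or were still diabetic at collection, was not tested, which limits what the 0.5% group values stand for. Some results of the 0.5% group are therefore given with and without them, and the others only with all mice of the group. The pair was picked after its likeness to untreated mice was seen on these same arrays. Leaving it out therefore favours larger differences of the 0.5% group from untreated mice. It also takes the pair's spread out of the shared estimate. Calls made without the pair are a description and no separate support. Mean array intensity before normalisation was 61 to 102, and correlations between arrays were 0.964 to 0.989. The number of arrays limits the precision of each value.

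Promoter windows of 24 of the 31 genes, 26 windows in all, were found in the RefSeq table for build GRCm38.p6, each from 250 bases before to 50 bases after the gene's start. Angptl4, Vnn1, Decr1, Acaa2, Acat1, Crat and Hsd17b4 had none there. The paired hexamer to which PPARalpha binds with its partner RXR was searched as AGGNCA, any base and AGGNCA again, on both strands. It was found in 1 of the 26 windows (3.85%), that of Fabp1, against 125 of 32851 windows of all genes (0.381%). The stricter form with AGGTCA in both places was in none of the 26. The Fabp1 stretch lies at chr6:71199788-71199848 on the plus strand, which is the gene's strand. Its capitals mark the match, which reads on the minus strand and begins 67 bases before the start. It is shown because it is the single match among the listed genes.
Fabp1: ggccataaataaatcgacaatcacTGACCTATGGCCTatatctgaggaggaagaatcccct
The GC box letters GGGCGG, searched on both strands after the values were seen and not part of that repeat, were in 19 of the 26 windows (73.1%) and in 35.7% of all windows. Cpt2 and Eci2, the genes whose 0.1% quercetin mice all lay above all untreated mice (described below), carry 2 each in the 250 bases before their starts. They are shown in capitals, read on the gene's strand, at chr4:107923590-107923839 (minus strand) and chr13:34994145-34994394 (minus strand). In the Eci2 stretch the capitals CCGCCC are the match on the opposite strand. A match of letters describes the window and is no evidence of binding.
Cpt2: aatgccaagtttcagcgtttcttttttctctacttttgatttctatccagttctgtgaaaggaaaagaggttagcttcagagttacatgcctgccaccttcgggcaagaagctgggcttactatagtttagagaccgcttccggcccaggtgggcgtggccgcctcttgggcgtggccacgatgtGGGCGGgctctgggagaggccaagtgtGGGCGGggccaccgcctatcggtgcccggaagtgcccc
Eci2: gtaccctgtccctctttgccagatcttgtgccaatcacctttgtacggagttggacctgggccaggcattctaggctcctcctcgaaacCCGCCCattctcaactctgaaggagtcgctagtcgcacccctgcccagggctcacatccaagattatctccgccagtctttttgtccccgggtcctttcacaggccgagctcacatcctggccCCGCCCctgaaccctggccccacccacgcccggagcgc

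None of the 30 measured genes passed the threshold (limma, Benjamini-Hochberg adjusted p under 0.05) in STZ against untreated mice, while 266 of all genes were higher (2.03%) and 222 lower (1.69%). The median log2 difference of the 30 was 0.10, against -0.02 over all genes tested, and 21 of the 30 lay above 0, against 44.8% of all genes. With the Gapdh difference in the fit the median was 0.00 with 15 above 0, and under median scaling it was 0.03 with 16 above 0. The smallest adjusted p was 0.105. At an unadjusted p under 0.05, 2 were higher and 1 was lower, against 7.32% and 9.41% of all genes. For 26 of the 30 the 95% interval of the difference stayed within 1.5-fold either way, as it did for 91.8% of all genes.

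Acat1, the acetyl-CoA acetyltransferase that joins acetyl-CoA units on the way to ketone bodies, had the smallest p. Its levels were 10.54, 10.62 and 10.78 in STZ mice (lowest, median and highest), against 10.84, 10.90 and 10.97 in untreated mice. All 6 STZ mice lay below every untreated mouse, a separation seen for 2.23% of all genes in that direction. The difference was -0.28 (SE 0.10, limma adjusted p = 0.105). It passed under median scaling (-0.40, adjusted p = 0.00987), under trimmed mean scaling (-0.37, adjusted p = 0.0339) and with only the compared groups in the fit (adjusted p = 0.023). The 3 probe sets of Acat1 gave -0.28, -0.25 and -0.25. Bdh1, the dehydrogenase that converts acetoacetate and beta-hydroxybutyrate into each other, had 10.06, 10.15 and 10.42 in STZ mice and 10.10, 10.19 and 10.23 in untreated mice. Its groups overlapped, with a difference of -0.01 (95% interval -0.16 to 0.15). A dimmer Bdh1 probe set gave -0.15.

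Among the genes of fatty acid entry, Cpt2, the inner-membrane carnitine palmitoyltransferase that returns fatty acids to CoA in the matrix, had the smallest p. Its levels were 8.27, 8.51 and 8.65 in STZ mice, against 8.08, 8.19 and 8.31 in untreated mice. Of the STZ mice, 5 lay above every untreated mouse and replicate 1 did not. The difference of 0.31 (SE 0.12) had a limma adjusted p of 0.168. Without the 0.5% quercetin mice that stood apart, which share the estimate of the spread, the same difference had an SE of 0.08 and an adjusted p of 0.0265, when 2.62% of all genes were higher. A second, dimmer Cpt2 probe set gave -0.05, at a mean level of 4.74, near the filter's cut of 4.313. Cpt1a, the outer-membrane enzyme on which malonyl-CoA acts, had 8.98, 9.41 and 9.48 in STZ mice and 9.05, 9.13 and 9.71 in untreated mice, with a difference of 0.11 (-0.15 to 0.37). Dimmer Cpt1a probe sets gave 0.30 and 0.15. Slc25a20, the carrier that moves acylcarnitines across the inner membrane, differed by 0.03 (-0.19 to 0.24), and Fabp1, the abundant fatty acid binding protein of the liver, by -0.07 (-0.21 to 0.06). Second probe sets gave 0.11 for Slc25a20 and 0.04 for Fabp1. Under median scaling alone Fabp1 passed as lower in STZ mice (-0.34, adjusted p = 0.0294). Crat, which forms short-chain acylcarnitines, differed by 0.26 (-0.03 to 0.55), and its dimmer probe sets gave -0.02 and 0.16. For Crat, too, 5 STZ mice lay above every untreated mouse. The share of all genes with 5 of 6 mice so placed was not counted, here or below.

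**Figure D1:**
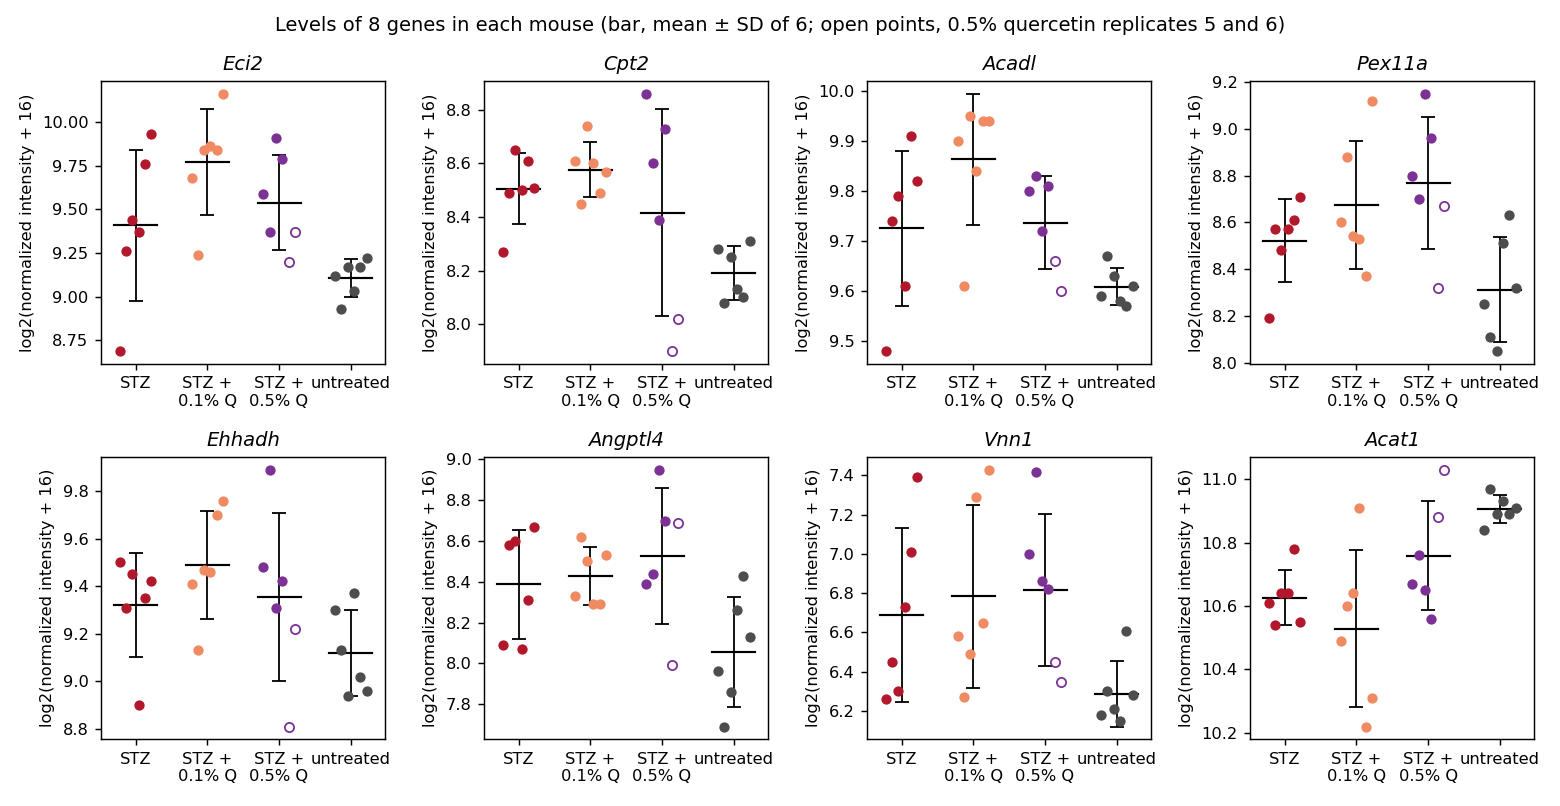
Log2 level of 8 genes in each of the 6 mice of the STZ, STZ + 0.1% quercetin (Q), STZ + 0.5% quercetin and untreated groups; lines show mean ± SD and open points are replicates 5 and 6 of the 0.5% group. Acat1 lay below all untreated mice in all 6 STZ mice, Eci2 and Cpt2 lay above all untreated mice in all 6 mice given 0.1% quercetin, and the open points for Cpt2 (7.90 and 8.02) lay below every untreated mouse.

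The mitochondrial dehydrogenases and electron carriers had a median difference of 0.00 in STZ against untreated mice (7 genes, none past the threshold). Acadm, the medium-chain acyl-CoA dehydrogenase, had 10.21, 10.34 and 10.61 in STZ and 10.14, 10.26 and 10.29 in untreated mice. Here 5 of 6 STZ mice lay above every untreated mouse, with a difference of 0.15 (-0.01 to 0.31). The long-chain enzyme Acadl differed by 0.12, the very-long-chain enzyme Acadvl by -0.07 and the short-chain enzyme Acads by 0.00. The electron transfer flavoprotein subunits Etfa and Etfb differed by -0.03 and 0.00, and Etfdh, which passes their electrons to ubiquinone, by 0.13.

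The 8 mitochondrial enzymes of the later steps had a median difference of 0.06. The trifunctional protein subunits Hadha and Hadhb differed by 0.04 (-0.13 to 0.21) and 0.08 (-0.09 to 0.25), and the thiolase Acaa2 by -0.01 (-0.15 to 0.13). The probe sets of Acaa2 disagreed, with 0.05 and 0.25 in the others (limma adjusted p = 0.22 for 0.25, over 23080 probe sets). Hadh, the short-chain hydroxyacyl-CoA dehydrogenase, differed by 0.14 (-0.01 to 0.28). A dimmer Hadh probe set gave 0.98 (limma adjusted p = 0.0447 over the same probe sets), while the remaining one gave 0.18, so the probe sets of Hadh disagreed. Of the auxiliary enzymes that deal with double bonds in unsaturated fatty acids, Decr1 differed by 0.03, Ech1 by -0.02 and Eci1 by 0.16. Eci2, a delta3-delta2-enoyl-CoA isomerase found in both peroxisomes and mitochondria, had 8.69, 9.41 and 9.93 in STZ mice and 8.93, 9.15 and 9.22 in untreated mice. The STZ mice spread on both sides: 5 lay above every untreated mouse and replicate 1 lay below them all, with a difference of 0.30 (-0.03 to 0.63).

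The 5 peroxisomal genes had a median of 0.20, with none past the threshold. The bifunctional enzyme Ehhadh, a classic PPARalpha target in rodents, had 8.90, 9.38 and 9.50 in STZ and 8.94, 9.08 and 9.37 in untreated mice, with a difference of 0.20 (-0.08 to 0.48). Its groups overlapped, and replicate 4 was the lowest STZ mouse. Decr2, the peroxisomal dienoyl-CoA reductase, differed by 0.28 (-0.03 to 0.59), Pex11a, a protein of peroxisome division, by 0.21 (-0.06 to 0.48), and the thiolase Acaa1b by 0.11 (-0.10 to 0.32). Hsd17b4, the D-specific bifunctional enzyme, differed by -0.01 (-0.14 to 0.12). Dimmer probe sets gave 0.07 for Pex11a and 0.19 for Hsd17b4.

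Of the secreted and membrane proteins, Angptl4, an inhibitor of lipoprotein lipase, had 8.07, 8.45 and 8.67 in STZ and 7.69, 8.05 and 8.43 in untreated mice. Of the STZ mice, 3 lay above every untreated mouse, and the difference of 0.33 (SE 0.14) had an adjusted p of 0.221. Vnn1, a pantetheinase, had 6.26, 6.59 and 7.39 in STZ and 6.15, 6.25 and 6.61 in untreated mice, with a difference of 0.40 (0.00 to 0.81, adjusted p = 0.307). Its second probe set gave 0.41. Fgf21, a hormone released by the liver in fasting, had 5.14, 5.54 and 6.39 in STZ and 5.10, 5.58 and 6.53 in untreated mice. Fgf21 had the widest interval of the 30 (-0.51 to 0.46), so the data leave changes of that size possible in either direction.

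**Figure D2:**
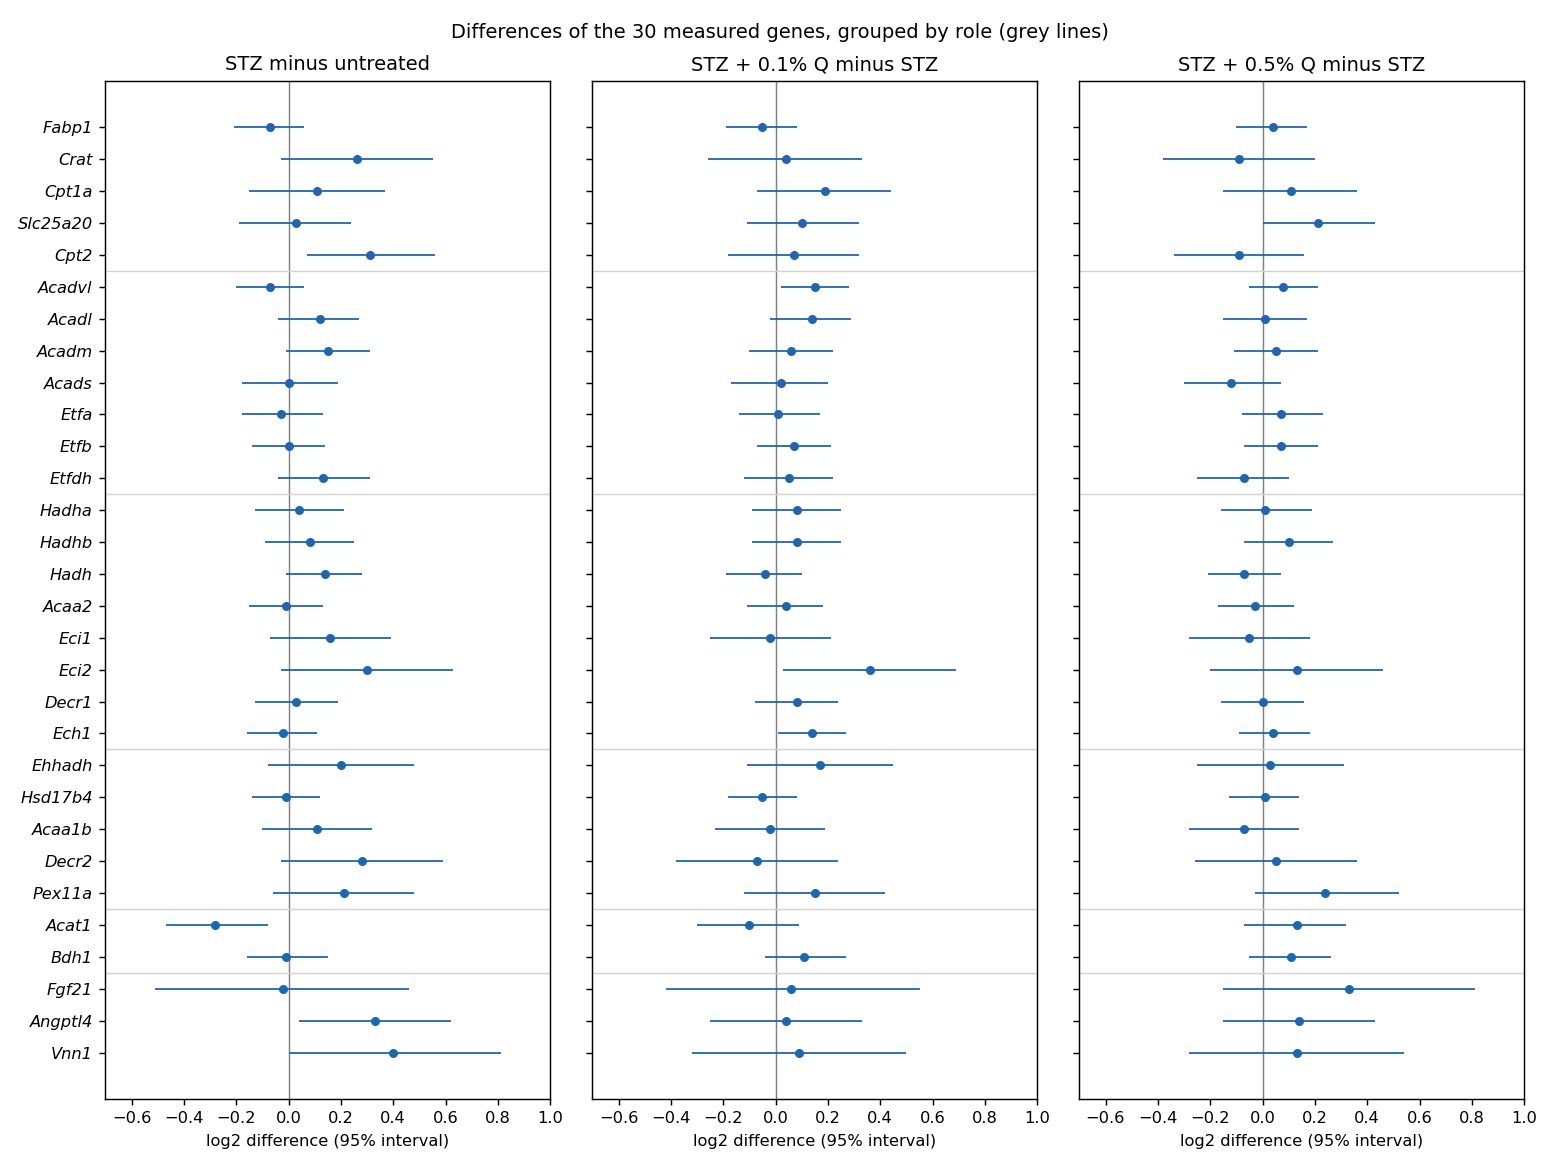
Log2 differences of the 30 measured genes with 95% intervals from limma, for STZ minus untreated mice, 0.1% quercetin minus STZ mice and 0.5% quercetin minus STZ mice; grey lines separate the roles. No gene passed the adjusted threshold in any of the 3 panels, and the median differences were 0.10, 0.07 and 0.05.

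Quercetin did not move any of the 30 genes past the threshold in STZ mice, and the same held for all 13117 genes at either dose (0% called in each direction by limma). At an unadjusted p under 0.05, 356 of all genes were higher (2.71%) and 331 lower (2.52%) in 0.1% quercetin against STZ mice. Of the 30, 3 were higher by that measure: Eci2 by 0.36 (SE 0.16, 0.03 to 0.69, adjusted p = 0.908), Acadvl by 0.15 (0.02 to 0.28, adjusted p = 0.906) and Ech1 by 0.14 (0.01 to 0.27, adjusted p = 0.936). Eci2 had 9.24, 9.84 and 10.16 in 0.1% quercetin mice, against 8.69, 9.41 and 9.93 in STZ mice, and the groups overlapped. The median difference of the 30 was 0.07, against 0.01 over all genes, with 23 of 30 above 0 (52.1% of all genes). As deposited, without scaling, the median was 0.00 and 13 of 30 lay above 0.

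In 0.5% quercetin against STZ mice none of the 30 reached an unadjusted p under 0.05, while 3.63% of all genes were higher and 3.88% lower by that measure. The median difference was 0.05, against 0.00 over all genes, with 22 of 30 above 0 (50.5% of all genes). That sign turned under median scaling (-0.05, with 8 above 0) and without scaling (-0.07, with 5 above 0). The smallest p belonged to Slc25a20, with 9.24, 9.50 and 9.67 in 0.5% quercetin mice and 8.77, 9.28 and 9.55 in STZ mice, a difference of 0.21 (0.00 to 0.43, adjusted p = 0.667). Its dimmer probe set gave 0.09. Pex11a differed by 0.24 (-0.03 to 0.52), with 0.14 in its dimmer probe set, and Fgf21 by 0.33 (-0.15 to 0.81). Leaving out replicates 5 and 6 gave no call at this dose either, with a median of 0.08.

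At each dose the 95% interval stayed within 1.5-fold for 29 of the 30 genes, against 96.2% of all genes at 0.1% and 95.1% at 0.5%. For Cpt1a the interval was -0.07 to 0.44 at 0.1% and -0.15 to 0.36 at 0.5%. For Ehhadh it was -0.11 to 0.45 at 0.1% and -0.25 to 0.31 at 0.5%. For Cpt2 it was -0.18 to 0.32 at 0.1% and -0.34 to 0.16 at 0.5%. For Acat1 it was -0.30 to 0.09 at 0.1% and -0.07 to 0.32 at 0.5%. These intervals show the size of change that the data leave possible, and they do not show that quercetin had no effect.

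Between the doses, 0.5% against 0.1% quercetin, no gene of all 13117 passed (0%), while 3.82% were higher and 4.52% lower at an unadjusted p under 0.05. Acat1 was the one gene of the 30 under that level. It had 10.56, 10.72 and 11.03 in 0.5% quercetin mice, against 10.22, 10.55 and 10.91 in 0.1% quercetin mice, with overlapping groups and a difference of 0.23 (0.04 to 0.43, adjusted p = 0.53). Its highest values at the higher dose, 10.88 and 11.03, came from replicates 5 and 6. The median of the 30 genes was -0.03, with 12 above 0 (49.1% of all genes). Without replicates 5 and 6 of the 0.5% group it was 0.03 with 17 above 0, and under trimmed mean scaling 0.01 with 16 above 0.

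Against untreated mice, 0.1% quercetin mice showed the 2 changes of the 30 genes that passed the threshold. Of all genes, 385 were higher (2.94%) and 346 lower (2.64%), so 1 higher and 1 lower of 30 is close to that background. The untreated mice are shared with the other comparisons, and the values are therefore given side by side. Eci2 was higher in 0.1% quercetin mice, with 9.24, 9.84 and 10.16, against 8.93, 9.15 and 9.22 in untreated mice. All 6 lay above every untreated mouse, a separation seen in 2.1% of all genes. The difference was 0.66 (SE 0.16, 1.58-fold, limma adjusted p = 0.0123), beside 0.30 for STZ and 0.43 (adjusted p = 0.252) for 0.5% quercetin mice.

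Acat1 was lower in 0.1% quercetin mice, with 10.22, 10.55 and 10.91, against 10.84, 10.90 and 10.97 in untreated mice. Of the 6, 5 lay below every untreated mouse, and replicate 4 lay among them. The difference was -0.38 (SE 0.10, limma adjusted p = 0.0163), beside -0.28 for STZ and -0.15 for 0.5% quercetin mice, and its 3 probe sets gave -0.38, -0.35 and -0.39. Without replicate 5 of the 0.1% group the adjusted p was 0.0574, and without replicate 6 it was 0.0533. With the Gapdh difference in the fit, neither call held: Eci2 was 0.46 (adjusted p = 0.324) and Acat1 -0.28 (adjusted p = 0.32), and calls over all genes fell to 3 higher and 1 lower. Without scaling they were 0.69 (adjusted p = 0.135) and -0.40 (adjusted p = 0.123).

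Acadl and Cpt2 lay just outside the threshold in the same comparison. Acadl had 9.61, 9.92 and 9.95 in 0.1% quercetin mice, against 9.57, 9.60 and 9.67 in untreated mice. Its difference was 0.25 (SE 0.08, adjusted p = 0.0507), with 5 of 6 mice above every untreated mouse. Cpt2 had 8.45, 8.58 and 8.74 in 0.1% quercetin mice and 8.08, 8.19 and 8.31 in untreated mice, with no overlap. Its difference was 0.38 (SE 0.12, adjusted p = 0.0599). Without the pair of 0.5% quercetin mice that stood apart, both passed (adjusted p = 0.0417 for Acadl and 0.00467 for Cpt2), when 3.57% of all genes were higher. Dimmer second probe sets gave -0.11 for Acadl and -0.21 for Cpt2. Acadm passed only without replicate 2 of the 0.1% group (0.27, adjusted p = 0.0259).

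Of the 30, 11 were higher and 1 lower at an unadjusted p under 0.05, against 8.91% and 10% of all genes. The other higher ones were Ehhadh (0.37), Angptl4 (0.37), Pex11a (0.36), Vnn1 (0.50), Cpt1a (0.30), Crat (0.29), Acadm (0.21) and Etfdh (0.19), with adjusted p-values between 0.116 and 0.256. Dimmer probe sets gave 0.68 and 0.30 for Cpt1a, 0.20 for Pex11a, 0.54 for Vnn1, and 0.10 and 0.16 for Crat. The median difference was 0.12, against -0.01 over all genes, and 26 of 30 lay above 0 (46.3% of all genes). It was 0.04, with 19 above 0, under median scaling. By role the medians were 0.29 for fatty acid entry, 0.07 for the dehydrogenases and electron carriers, and 0.12 for the later mitochondrial steps. They were 0.21 for peroxisomes and 0.37 for the secreted and membrane proteins. The 2 ketone body enzymes went opposite ways, Acat1 at -0.38 and Bdh1 at 0.11 (median -0.14).

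Against untreated mice, 0.5% quercetin mice had no call among the 30, with 7 higher (0.0534%) and 10 lower (0.0762%) of all genes. Pex11a had 8.32, 8.75 and 9.15 in 0.5% quercetin mice, against 8.05, 8.29 and 8.63 in untreated mice, and 5 of 6 lay above every untreated mouse. Its difference was 0.45 (SE 0.13, adjusted p = 0.149), and its dimmer probe set gave 0.21. Angptl4 had 7.99, 8.56 and 8.95 in 0.5% quercetin mice and 7.69, 8.05 and 8.43 in untreated mice, with a difference of 0.47 (SE 0.14, adjusted p = 0.153). Acadm had 10.35, 10.44 and 10.53 in 0.5% quercetin mice and 10.14, 10.26 and 10.29 in untreated mice. Those Acadm groups did not overlap, as for 0.252% of all genes in that direction, with a difference of 0.20 (adjusted p = 0.289).

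Leaving out replicates 5 and 6 also changed this comparison. Since they were picked for lying among the untreated mice, more calls against untreated mice are built into that choice. Without them 1.78% of all genes were higher and 1.52% lower, and 3 of the 30 genes were higher: Cpt2 (0.45, adjusted p = 0.00503), Pex11a (0.59, adjusted p = 0.0145) and Angptl4 (0.56, adjusted p = 0.0286). For Cpt2 the difference with all 6 mice was 0.22. The Cpt2 levels of the pair were 7.90 and 8.02, against 8.39 to 8.86 in the other 4 mice. Vnn1 was 0.74 without them (adjusted p = 0.0522) and 0.53 with them. At an unadjusted p under 0.05, 8 of the 30 were higher with all mice, against 5.31% of all genes, and the median difference was 0.10, against -0.01 over all genes. That median was -0.07 under median scaling.

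**Figure D3:**
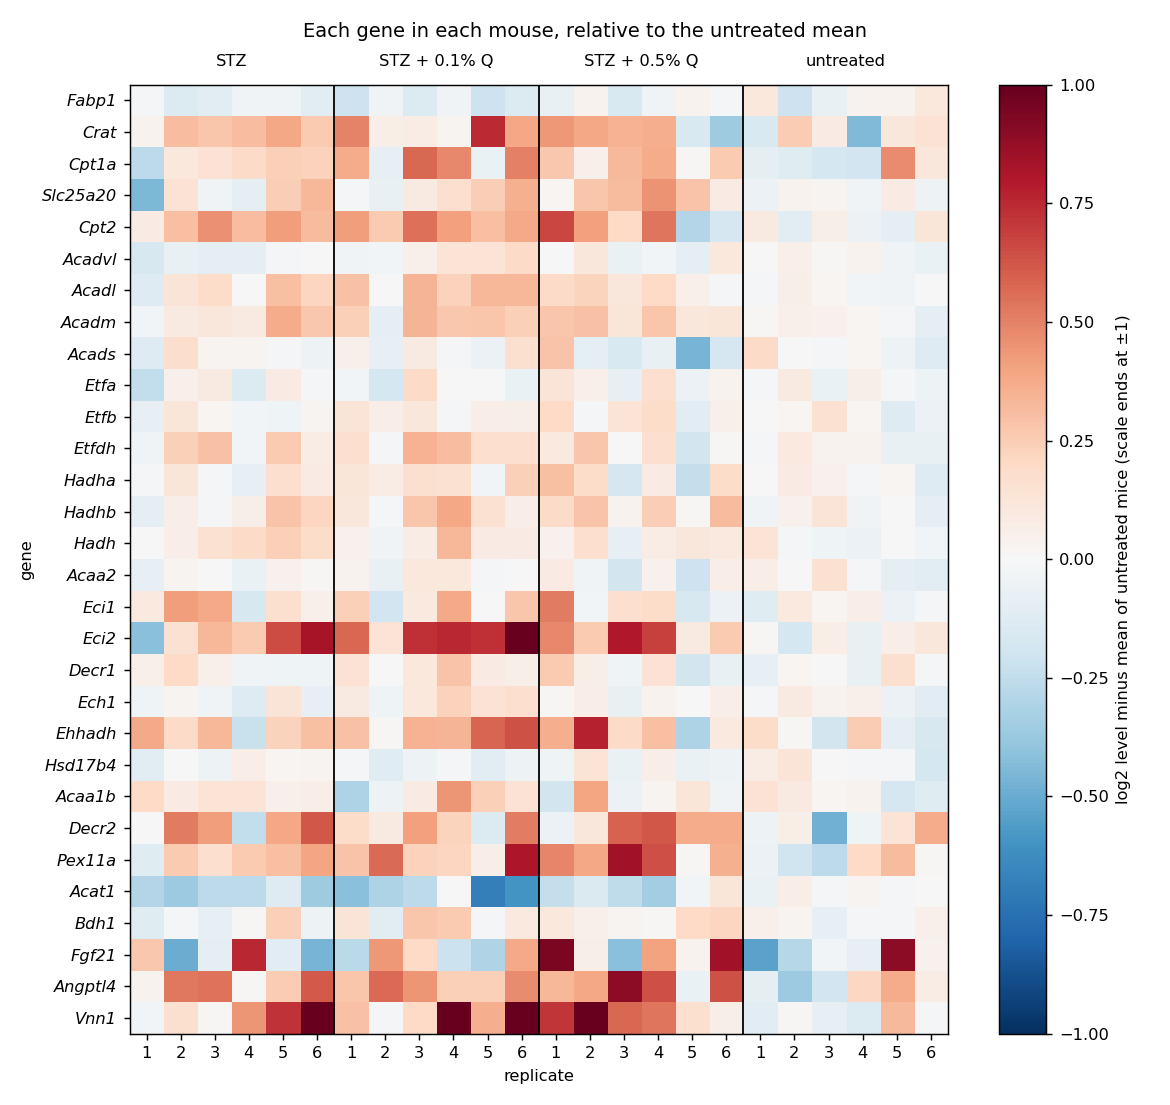
Log2 level of each of the 30 measured genes (down) in each of the 24 mice (across, by group and replicate), minus the mean of the untreated mice, with the colour scale ending at ±1. Acat1 was below the untreated mean across the STZ mice, Eci2 was above it in all 6 mice given 0.1% quercetin, and STZ replicate 1, 0.1% quercetin replicate 2 and 0.5% quercetin replicate 5 were paler or bluer than their group.

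The 30 genes varied less within groups than genes in general, with a median pooled SD of 0.14, against 0.19 over all genes tested. The steadiest were Acadvl (0.073), Hsd17b4 (0.077) and Ech1 (0.079). The most variable were Fgf21 (0.46), Vnn1 (0.384), Eci2 (0.302) and Decr2 (0.281). Fgf21, Crat and Vnn1, which had the lowest levels of the 30, lay at spread percentiles 98.6, 86.7 and 97.5 among all genes tested. The 30 genes were not compared with genes of like level. STZ replicate 1 was the lowest of its group for 19 of the 30 genes, 0.1% quercetin replicate 2 for 19 and 0.5% quercetin replicate 5 for 17. Measured by how many of the 30 lay above every untreated mouse, mice ranged from 2 to 15 in STZ, 4 to 18 in 0.1% quercetin and 3 to 18 in 0.5% quercetin. The median difference of a mouse from the untreated mean was -0.04 in STZ replicate 1 and 0.23 in STZ replicate 5, so mice of 1 group differed by more than the group medians did. These per-mouse counts rest on genes measured on the same array and are not independent. The same counts were not made over all genes tested. A trait of these genes and one of the whole array can therefore not be told apart here.

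A wider list of 76 further pathway genes, of which 68 passed the filter, was tested in the same fit. In STZ against untreated mice 3 were higher (2.03% of all genes) and 4 lower (1.69%) of the 68. Cyp4a14, a microsomal fatty acid omega-hydroxylase, had 5.36, 6.71 and 9.30 in STZ mice, against 4.09, 4.41 and 4.82 in untreated mice. All 6 STZ mice lay above every untreated mouse, as for 1.96% of all genes, over a wide range. The difference was 2.27 (SE 0.62, 4.82-fold in intensity plus 16, adjusted p = 0.0358). The untreated levels of Cyp4a14 lay around the filter's cut of 4.313, where the added 16 makes up most of the value. Acot2, a mitochondrial acyl-CoA thioesterase, was higher by 0.57 (SE 0.13, adjusted p = 0.0128), and Slc22a5, the plasma membrane carnitine transporter, by 0.51 (SE 0.15, adjusted p = 0.0472).

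The 4 lower genes each had all 6 STZ mice below every untreated mouse, as had 2.23% of all genes. Nudt7, a peroxisomal hydrolase of CoA, had 10.33, 10.64 and 11.29 in STZ mice and 11.30, 11.66 and 11.98 in untreated mice (-0.90, SE 0.22, adjusted p = 0.0216). Bdh2, a cytosolic dehydrogenase of the Bdh family, had 5.81, 5.94 and 6.06 in STZ mice and 6.30, 6.36 and 6.54 in untreated mice (-0.43, SE 0.09, adjusted p = 0.00535). Acadsb, the short/branched-chain acyl-CoA dehydrogenase, had a difference of -0.29 (adjusted p = 0.041), and Amacr, the racemase of branched fatty acids, had a difference of -0.25 (adjusted p = 0.0314). Without scaling only Cyp4a14 kept its call (adjusted p from 0.0584 for Nudt7 to 0.831 for Amacr in the others), and with a constant of 64 Cyp4a14 was 1.24 (adjusted p = 0.135). No call on these 7 genes held with the Gapdh difference in the fit. Cyp4a14 was then 0.77 (adjusted p = 0.805) and Bdh2 -0.46 (adjusted p = 0.132). Leaving out single mice also ended the calls on Cyp4a14, Slc22a5, Acadsb, Amacr and Nudt7. Among these, Cyp4a14 was 1.75 (adjusted p = 0.112) without STZ replicate 6 and Slc22a5 0.44 (adjusted p = 0.122) without STZ replicate 5. Acadsb was -0.26 (adjusted p = 0.106) without untreated replicate 3, Amacr -0.24 (adjusted p = 0.0759) and Nudt7 -0.81 (adjusted p = 0.0657) without STZ replicate 6.

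In 0.1% quercetin against untreated mice 7 of the 68 were higher (2.94% of all genes) and 3 lower (2.64%). Cyp4a14 had 5.68, 7.82 and 9.59 in 0.1% quercetin mice (difference 3.18, SE 0.62, 9.07-fold in intensity plus 16, adjusted p = 0.00244). The thioesterases Acot3 (1.36), Acot2 (0.72) and Acot4 (0.56) were higher, as were Slc22a5 (0.69), the acyl-CoA dehydrogenase Acad11 (0.42) and Pnpla2, the triglyceride lipase that releases stored fatty acids (0.39). Acad11 had 9.84, 10.11 and 10.28 in 0.1% quercetin mice and 9.56, 9.68 and 9.75 in untreated mice, with no overlap, as for 2.1% of all genes (adjusted p = 0.00661). Nudt7 (-0.95, adjusted p = 0.0102), Bdh2 (-0.44, adjusted p = 0.00246) and Cyp4a12a, an omega-hydroxylase expressed mainly in males (-0.95, adjusted p = 0.029), were lower. With the Gapdh difference in the fit none of the 10 passed, and Cyp4a14 was 1.80 (adjusted p = 0.231). Without scaling Acot4, Acad11, Pnpla2 and Bdh2 did not pass (adjusted p = 0.135, 0.234, 0.233 and 0.252), and under median scaling Acad11 and Pnpla2 did not (0.0977 and 0.117). Acot4, Cyp4a12a and Pnpla2 also lost their calls without single mice of the 0.1% group. For example, without replicate 6 they were 0.48 (adjusted p = 0.114), -0.75 (adjusted p = 0.0914) and 0.35 (adjusted p = 0.0561).

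None of the 68 passed in 0.5% quercetin against untreated mice. The genes with the smallest p-values there were Slc22a5 (0.60, adjusted p = 0.0761), Plin5, a lipid droplet coat protein (0.43, adjusted p = 0.149), and Acsl3 (-0.31, adjusted p = 0.192). Without replicates 5 and 6, when 1.78% of all genes were higher and 1.52% lower, 5 passed, all higher: Slc22a5 (0.81), Acot1 (0.88), Acad11 (0.42), Pnpla2 (0.37) and Cyp4a14 (2.22, adjusted p = 0.0475). With those mice included, Cyp4a14 was 1.43 (adjusted p = 0.334). Here too the choice of the mice left out favours calls against untreated mice.

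**Figure D4:**
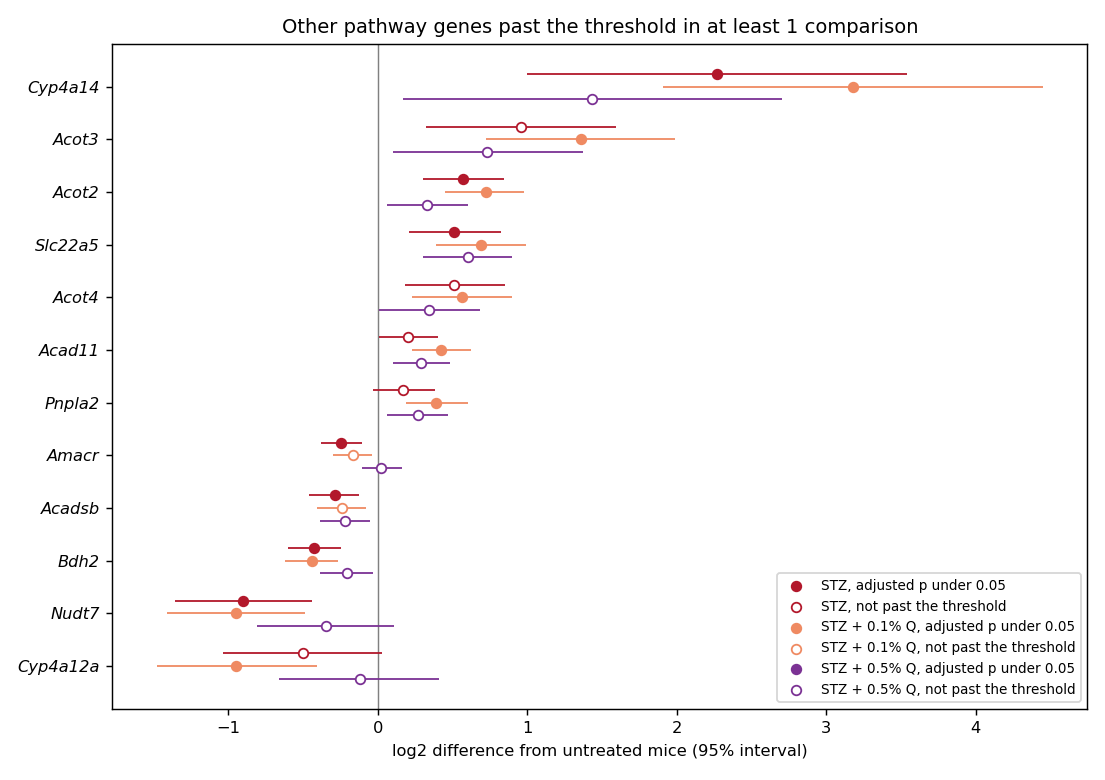
Log2 difference from untreated mice with its 95% interval for the 12 further pathway genes past the threshold in at least 1 comparison, in STZ, 0.1% quercetin and 0.5% quercetin mice; filled points have an adjusted p under 0.05. Cyp4a14 had the largest differences plotted, at 2.27 in STZ, 3.18 in 0.1% quercetin and 1.43 in 0.5% quercetin mice. Its levels in untreated mice lay around the filter's cut.

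Against STZ mice, neither dose changed any of the 68 genes past the threshold. Pdk4, the kinase that turns off pyruvate dehydrogenase when fat is burned, had the smallest p at 0.1%. It had levels of 4.53 to 4.98 in 0.1% quercetin mice, against 5.06 to 5.75 in STZ mice. All 6 treated mice lay below every STZ mouse, a separation seen in 0.0915% of all genes in that direction. These levels are low, near the filter's cut of 4.313. How the Pdk4 difference depends on scaling, the added constant or RNA quality was not tested. The difference was -0.64 (SE 0.13, unadjusted p = 2.71e-05, limma adjusted p = 0.356). Pdk4 differed by -0.38 at 0.5% (adjusted p = 0.537). Of 12 clock-phase genes, 5 were higher and 2 lower in the same comparison at an unadjusted p under 0.05 (2.71% and 2.52% of all genes), none past the threshold, with Dbp at 1.5 (adjusted p = 0.871). Their summed intensities were 852 to 1760 in 0.1% quercetin and 596 to 1230 in STZ mice, and their part in the differences at 0.1% was not tested. The next genes at 0.1% were Acaca, the enzyme that makes malonyl-CoA (-0.63, adjusted p = 0.871), and Acsl4 (-0.31, adjusted p = 0.885).

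At 0.5% Amacr had the smallest p against STZ mice, with 9.88 to 10.12 in 0.5% quercetin mice and 9.66 to 9.86 in STZ mice. Those groups did not overlap, as for 0.191% of all genes, with a difference of 0.27 (SE 0.07, limma adjusted p = 0.365). Mgll, the monoglyceride lipase, differed by 0.41 (adjusted p = 0.562). Between the doses the smallest p-values belonged to Cyp4a12a (0.83, adjusted p = 0.423), Acot2 (-0.39, adjusted p = 0.456) and Amacr (0.19, adjusted p = 0.461).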

How the data were processed

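RNA from 24 livers was hybridised to Affymetrix 3′ arrays, 1 per mouse, and grouped by the sample labels. The deposited values are linear probe set intensity values, as read from the values themselves; the summarisation method is not given in the sources used here. Mean intensity differed up to 1.67-fold between arrays. Here the values were quantile normalized, 16 was added and log2 taken. Of 45101 probe sets, 34958 had 1 symbol in the platform annotation, 932 several and 9211 none listed, and 34741 matched a RefSeq entry by Entrez ID. Genes whose mean lay under the 40th percentile of non-control probe sets were left out. One limma fit (limma 3.58.1, R 4.3.3) with 4 group means gave two-sided tests, adjusted by Benjamini-Hochberg over 13117 genes at 0.05. The script was tested on simulated data. All 30 measured genes were to be named, and of the wider list those past the threshold or, with none, the 3 with the smallest p. Genes, lists and tests were chosen with earlier results of these data known. Replicate numbers did not pair mice: same-number correlations of deviations ran from -0.14 to 0.32. Alternatives covered scaling, the added constant, filters, the variance model, single mice and RNA quality.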

Additional observations from a re-analysis of the deposited data

Results flagged for a closer look

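Of 120 groups of 6 mice (30 genes in 4 groups), 8 had a mouse whose gap to its neighbour exceeded Dixon's 95% critical share of the group's range, where chance at 1 in 20 gives about 6. STZ replicate 1 was lowest for Crat (6.10, next 6.33) and Cpt1a (8.98, next 9.34). The 0.1% quercetin replicate 2 was lowest for Acadl (9.61, next 9.84) and Acadm (10.14, next 10.48). STZ replicate 4 was lowest for Ehhadh (8.90, next 9.31). Hadh was highest in 0.1% quercetin replicate 4 (12.07, next 11.82) and in untreated replicate 1 (11.87, next 11.74). Vnn1 was highest in untreated replicate 5 (6.61, next 6.30).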

How the results depend on the processing

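No result changed sign while past the threshold. In STZ against untreated mice, all genes higher and lower were 120 and 41 without scaling (74.5% higher, against 54.5%), 170 and 279 under median scaling (37.9%), and 4 and 2 with the Gapdh difference in the fit. The 30 measured genes, called pathway genes below, gave 2 lower under median scaling, 1 lower under trimmed mean scaling, 1 higher and 1 lower with only the compared groups, and 1 higher without 0.5% quercetin replicates 5 and 6. Leaving out single mice gave 146 to 257 higher and 100 to 209 lower genes, fewest in both directions without STZ replicate 6. In 0.1% quercetin against untreated mice, all genes were 127 and 90 without scaling, 222 and 539 under median scaling (29.2% higher, against 52.7%), and 3 and 1 with the Gapdh difference. Pathway genes higher were 0 without scaling and with the Gapdh difference, 2 with a constant of 64, no filter or only the compared groups, and 3 with the stricter filter, an intensity trend, or without 0.5% quercetin replicates 5 and 6; lower were 0 without scaling and with the Gapdh difference and 2 under median scaling. Single mice gave 244 to 433 and 196 to 383 genes, fewest without 0.1% quercetin replicate 5, and 1 to 3 and 0 to 1 pathway genes. In 0.5% quercetin against untreated mice, all genes were 2 and 6 without scaling (25% higher, against 41.2%), 37 and 649 under median scaling (5.39%), 16 higher under trimmed mean scaling (53.3%), 2 and 3 with a constant of 4, 1 higher with a constant of 64, 0 and 3 without a filter, 0 and 0 with the Gapdh difference or only the compared groups, and 233 and 199 without replicates 5 and 6. Pathway genes were 3 higher without those replicates and 1 lower (Acat1, -0.36) under median scaling. Single mice gave 0 to 88 and 1 to 62 genes, most without 0.5% quercetin replicate 6 (88 and 62) or 5 (75 and 62), and 0 to 2 pathway genes higher. Against STZ mice and between doses, at most 1 gene passed (0 to 1 lower, without 0.5% quercetin replicate 3 or 2) and 0 pathway genes did. With the replicate number as a block, 3 genes were higher and 3 lower in 0.5% quercetin against untreated mice, no call among the 30 genes changed, and of the wider list Cyp4a14, Slc22a5 and Amacr in STZ and Acot4 in 0.1% quercetin against untreated mice no longer passed (adjusted p = 0.0593, 0.0821, 0.0527 and 0.0503). The causes were not tested.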
